A study of Homo sapiens with 4 samples.

Results

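The ERBB receptors and the growth factors of the EGF family were examined in 2 established human breast cancer cell lines with and without expression of FBP1. The 10 genes were listed by name, with earlier results of these data known: the receptors EGFR, ERBB2 and ERBB3 and the ligands NRG1, AREG, EREG, HBEGF, TGFA, BTC and EGF. Of these, 9 had a probe set annotated to them alone, out of 18417 such genes on the array. AREG was not analysed here. NRG1 had 2 such probe sets, and the one with the higher mean was used. No gene was left out for low intensity.

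RNA came from MDA-MB231 stable clones expressing FBP1, MDA-MB231 control cells, Hs578T stable clones expressing FBP1 and Hs578T control cells, with 1 Affymetrix array for each. The labels class both lines as basal-like breast cancer. All cells grew in serum-containing medium and were harvested in log phase. FBP1 encodes fructose-1,6-bisphosphatase, an enzyme of glucose synthesis. The labels do not say how many clones an array represents or what the control cells carry, so FBP1 and the selection of clones cannot be told apart.

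ERBB receptors are membrane tyrosine kinases that pair with each other when a ligand binds. EGF, TGFA, AREG, EREG, HBEGF and BTC bind EGFR, several of them also ERBB4, whereas the neuregulin NRG1 binds ERBB3 and ERBB4. ERBB2 has no known ligand and acts as a partner, and ERBB3 has little kinase activity of its own. The ligands are made as membrane precursors, which ADAM proteases cut to release the growth factor, and the active receptors signal through RAS and ERK. EGFR is commonly abundant in basal-like breast cancer.

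The promoters of 4 ligand genes are shown because EREG, TGFA and HBEGF had the largest differences between the lines among the 9 genes, and EGF had a change of opposite sign in each line. Each window covers 250 bases before to 50 after the gene's start in RefSeq (GRCh38.p14), on the gene's own strand. Capitals mark matches on either strand to the letters TATAAA for a TATA box, GGGCGG for a GC box, CCAAT for a CCAAT box and TGANTCA for an AP-1 site.

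EREG: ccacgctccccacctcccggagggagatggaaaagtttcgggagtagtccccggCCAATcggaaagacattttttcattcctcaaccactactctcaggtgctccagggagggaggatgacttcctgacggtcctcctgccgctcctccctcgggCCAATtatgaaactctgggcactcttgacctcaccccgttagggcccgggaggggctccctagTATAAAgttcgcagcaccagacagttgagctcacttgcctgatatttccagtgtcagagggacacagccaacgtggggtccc

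TGFA: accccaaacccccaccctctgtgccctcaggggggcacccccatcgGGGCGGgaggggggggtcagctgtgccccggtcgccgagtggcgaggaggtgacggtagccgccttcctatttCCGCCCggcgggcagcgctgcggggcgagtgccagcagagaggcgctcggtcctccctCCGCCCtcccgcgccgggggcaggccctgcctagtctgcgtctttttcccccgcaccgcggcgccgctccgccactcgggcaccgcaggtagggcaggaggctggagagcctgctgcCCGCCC

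HBEGF: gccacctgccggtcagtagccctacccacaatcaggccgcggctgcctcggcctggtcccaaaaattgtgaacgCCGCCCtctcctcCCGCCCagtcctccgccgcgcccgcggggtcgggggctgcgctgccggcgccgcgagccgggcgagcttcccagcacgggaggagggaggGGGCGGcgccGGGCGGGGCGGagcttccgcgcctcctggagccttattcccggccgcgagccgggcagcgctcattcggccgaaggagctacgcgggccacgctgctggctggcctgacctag

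EGF: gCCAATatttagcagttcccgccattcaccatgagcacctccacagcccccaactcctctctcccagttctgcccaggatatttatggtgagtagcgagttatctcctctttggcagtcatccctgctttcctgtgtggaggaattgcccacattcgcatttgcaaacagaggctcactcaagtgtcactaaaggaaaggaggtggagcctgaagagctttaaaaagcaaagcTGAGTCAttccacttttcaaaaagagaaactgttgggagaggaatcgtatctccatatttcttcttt

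The windows lie at chr4:74364895-74365194 (plus strand, EREG), chr2:70553777-70554076 (minus strand, TGFA), chr5:140346554-140346853 (minus strand, HBEGF) and chr4:109912633-109912932 (plus strand, EGF). The EREG window held 1 TATA box, beginning 32 bases before the start, and 2 CCAAT boxes. The TGFA window held 4 GC boxes and the HBEGF window 5, of which a neighbouring pair shares a base. A further TGFA window held 0 matches to the 4 motifs. The EGF window held 1 CCAAT box and 1 AP-1 site. Of all 35116 windows of this length in the table, 11.5% held a TATA box, 45% a GC box, 34.6% a CCAAT box and 7.71% an AP-1 site. GC content was 57.7% for EREG, 75.3% for TGFA, 75.0% for HBEGF and 46.7% for EGF. Windows were found for 8 of the 10 genes. A match is a stretch of letters and does not show that a factor binds there.

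Median log2 intensity of the arrays lay between 7.83 and 7.86. FBP1 itself had a log2 level of 13.07 in FBP1 cells and 9.83 in control cells of MDA-MB231, and of 13.35 in FBP1 cells and 6.35 in control cells of Hs578T, in accord with the labels. As a guide to dim probe sets, 341 olfactory receptor genes, which breast cells are not known to use, had a median level of 5.65 and a 95th percentile of 7.13. Values below 7.13 are called dim here, and were not shown to lie above background. The basal keratin gene KRT5 was dim on all arrays (6.80 to 6.93), as was ESR1, the estrogen receptor gene (6.64 to 6.80). KRT14 ranged from 8.45 to 9.62. Of the mesenchymal markers, VIM lay between 13.71 and 13.72 and ZEB1 between 10.95 and 11.14, whereas CDH2 and FN1 differed between the lines. Of 4 leukocyte markers measured, PTPRC and CD3E, which mark lymphoid and other blood cells, were dim on all arrays. CD14 lay between 7.41 and 8.30 and CD68 between 10.99 and 11.60, above the dim level.

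**Figure D1:**
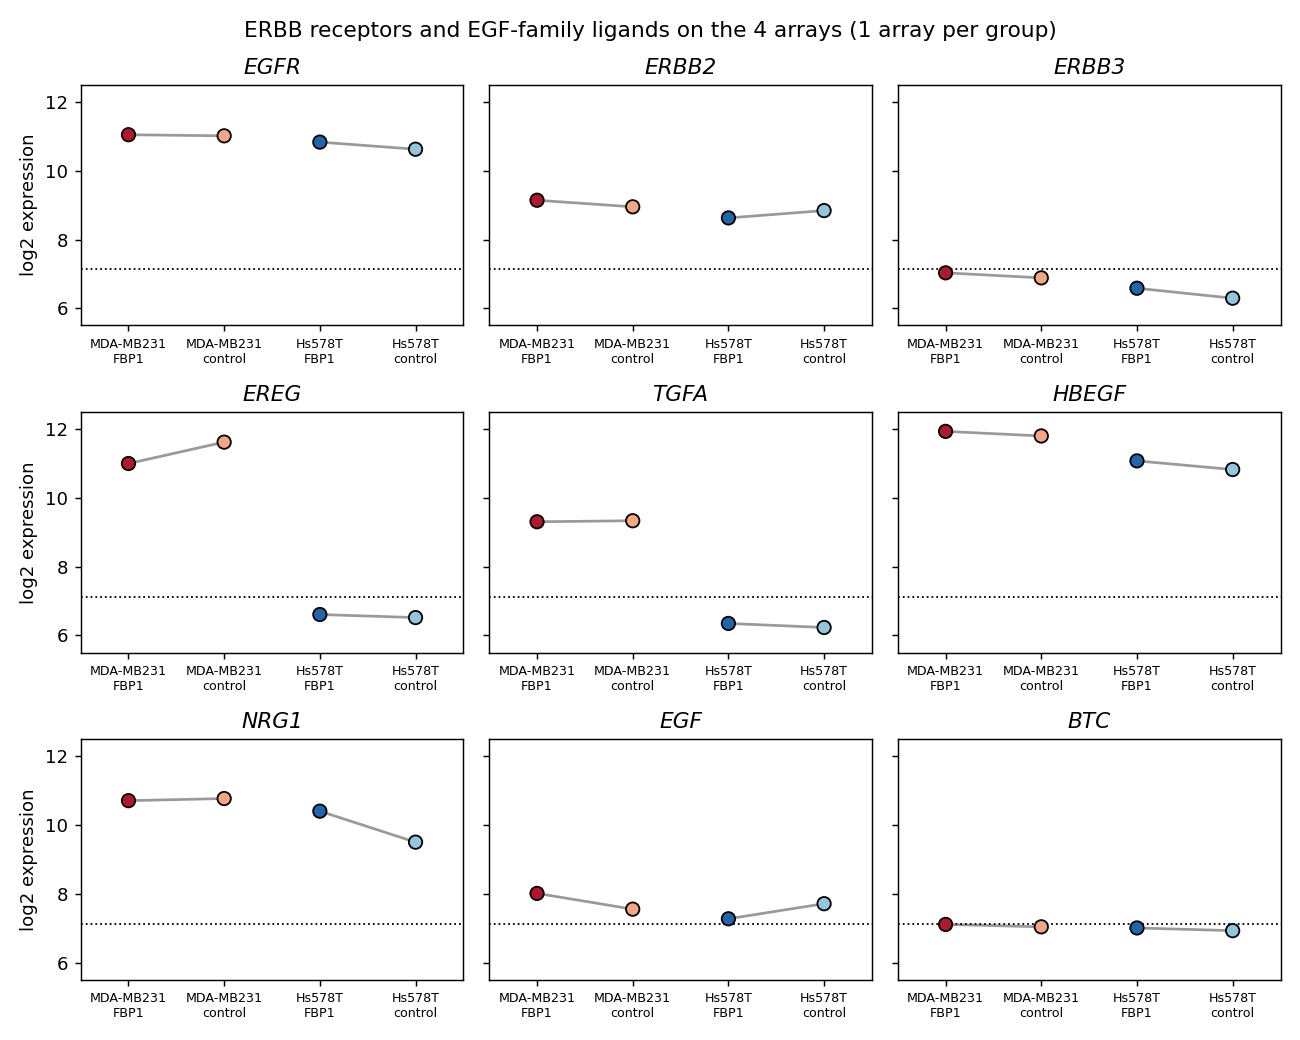
Log2 expression (y axis) of the 9 measured genes on the 4 arrays (x axis), 1 point per array, with lines joining FBP1 and control cells of a line. The dotted line marks the dim level of 7.13. EREG and TGFA lay above it in MDA-MB231 and below it in Hs578T.

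The lines were compared first, because this is where most of these genes differed. EREG and TGFA, which encode the EGFR ligands epiregulin and TGF-alpha, were far higher in MDA-MB231 than in Hs578T. HBEGF and NRG1 were higher by less than 2-fold, and of the receptors ERBB3 was called as higher in MDA-MB231. The fitted difference was above 0 for 9 of 9 genes, with a median of 0.52 log2, against -0.03 over all 18417 genes. It was above 0 both between control cells and between FBP1 cells for 8 of them, EGF being the exception. These counts include small differences, such as 0.11 log2 for BTC, which was dim, and 0.31 for ERBB2, which was not called. The share of all genes above 0 is not given here. Over the 4 arrays, limma with terms for line and construct called 5 of 9 as higher in MDA-MB231 at an adjusted p under 0.05 and 0 as higher in Hs578T. The NRG1 and ERBB3 calls among these were lost in some of the alternative fits given below. Among all genes, 36% were called in either direction, 19% as higher in MDA-MB231 and 16.9% as higher in Hs578T. Both MDA-MB231 arrays lay above both Hs578T arrays for 8 of the 9 genes, as they did for 33% of all genes.

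EREG had a log2 level of 11.00 in FBP1 and 11.63 in control cells of MDA-MB231, against 6.61 in FBP1 and 6.52 in control cells of Hs578T. It was thus bright in MDA-MB231 and dim in Hs578T, whichever construct the cells carried. The difference was 4.75 log2 with a standard error of 0.18 (26.9-fold, limma adjusted p = 1.5e-05). Because the Hs578T values were dim, the size of this fold is uncertain.

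TGFA showed the same order, with 9.31 in FBP1 and 9.34 in control cells of MDA-MB231, against 6.35 in FBP1 and 6.23 in control cells of Hs578T. The difference was 3.03 ± 0.11 log2 (standard error, 8.18-fold, limma adjusted p = 1.25e-05), and here too the Hs578T side was dim. HBEGF, which encodes a heparin-binding ligand of EGFR, was bright in both lines. Its level was 11.94 in FBP1 and 11.81 in control cells of MDA-MB231, against 11.08 in FBP1 and 10.83 in control cells of Hs578T. The lines did not overlap, and the difference was 0.92 ± 0.09 log2 (1.89-fold, limma adjusted p = 0.000575). EREG, TGFA and HBEGF were called under each of the alternatives tried, with any single array left out included. Fits with an array left out had cell line as their only term and 1 array in 1 of the lines. Their error was the FBP1 minus control difference of the other line, moderated by the prior. Calls gained or lost in those fits therefore also reflect the size of that difference.

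NRG1 encodes neuregulin 1, a ligand of ERBB3 and ERBB4. It stood at 10.71 in FBP1 and 10.77 in control cells of MDA-MB231, against 10.41 in FBP1 and 9.51 in control cells of Hs578T. The Hs578T control array was the low one, so the line difference was 1.27 log2 between control cells and 0.31 between FBP1 cells. The limma difference of 0.79 ± 0.22 log2 (1.73-fold) had an adjusted p of 0.0335. This call was lost with quantile normalization (limma adjusted p = 0.0566), median centring (0.0593) or cell line alone in the model (0.0737), and without either MDA-MB231 array (0.208 without the FBP1 array and 0.243 without the control array).

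EGF and BTC, which encode epidermal growth factor and betacellulin, were not called. EGF had 8.01 in FBP1 and 7.56 in control cells of MDA-MB231, against 7.28 in FBP1 and 7.71 in control cells of Hs578T. The lines overlapped, and the difference was 0.29 ± 0.21 log2 (limma adjusted p = 0.347), with -0.16 between control cells and 0.74 between FBP1 cells. BTC lay between 6.93 and 7.11 on the 4 arrays, all dim.

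The receptors differed less than EREG or TGFA. EGFR had 11.05 in FBP1 and 11.02 in control cells of MDA-MB231, against 10.84 in FBP1 and 10.63 in control cells of Hs578T. The arrays of the lines did not overlap, but the difference of 0.30 ± 0.10 log2 (1.23-fold) missed the threshold with a limma adjusted p of 0.0545, and passed it at 0.00872 without the Hs578T FBP1 array. ERBB2 had 9.14 in FBP1 and 8.95 in control cells of MDA-MB231, against 8.63 in FBP1 and 8.84 in control cells of Hs578T. Its difference of 0.31 ± 0.13 log2 was not called (limma adjusted p = 0.12), and was called at 0.0358 without the Hs578T control array.

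ERBB3 was dim on all 4 arrays, with 7.03 in FBP1 and 6.88 in control cells of MDA-MB231, against 6.58 in FBP1 and 6.29 in control cells of Hs578T. Its called difference of 0.52 ± 0.11 log2 (limma adjusted p = 0.012) thus rests on values not shown to lie above background. The call was lost without the MDA-MB231 FBP1 array (0.15), without the MDA-MB231 control array (0.081) and without the Hs578T control array (0.0606).

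**Figure D2:**
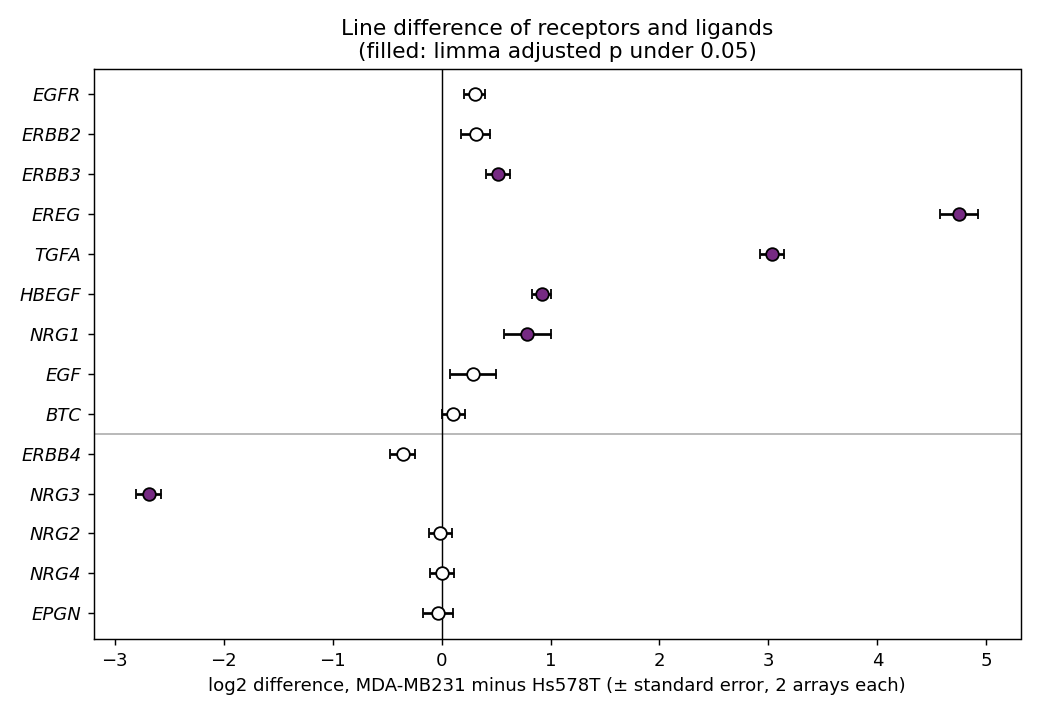
Log2 difference between the lines (x axis, MDA-MB231 minus Hs578T) for the 9 genes and, below the grey line, the other family members. Points are fitted differences, bars are standard errors, and filled points had a limma adjusted p under 0.05. EREG (4.75) and TGFA (3.03) lie far to the right, and NRG3 (-2.69) to the left.

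These calls compare 2 arrays per line that differ in construct, and the fit had 1 residual degree of freedom beside a prior worth 5.09. Nothing in the labels describes repeated cultures. The error of the fit came from how far a gene's FBP1 minus control change differed between the lines, moderated by the prior. The p-values thus do not measure the spread between repeated arrays or cultures. NRG1, with changes of -0.06 in MDA-MB231 and 0.90 in Hs578T, had the largest standard error of the receptor and ligand genes (0.22 log2). Markers of other cell types moved with the line as well. All 5 fibroblast markers listed were called as lower in MDA-MB231, with a mean log2 level of 6.35 in FBP1 and 6.29 in control cells of MDA-MB231, against 9.91 in FBP1 and 10.18 in control cells of Hs578T. DCN was dim in MDA-MB231, with 5.25 in FBP1 and 5.09 in control cells, and FAP and PDGFRA were dim there as well. Of 7 luminal markers, 3 were called as higher in MDA-MB231: KRT19 (4.05 log2), KRT8 (3.38) and GATA3 (0.82). The 1 called as higher in Hs578T was PGR (-0.58), which was dim on all arrays. KRT18 (0.10), ESR1 (-0.07) and FOXA1 (-0.33) were not called. Of 4 mesenchymal markers, 2 were called as lower in MDA-MB231, CDH2 by -5.62 and FN1 by -1.03 log2, and 0 as higher. The leukocyte marker CD14 was called as higher in MDA-MB231 (0.72 log2, limma adjusted p = 0.00608), as were 2 of 5 endothelial markers, PECAM1 (1.61) and KDR (0.47). PECAM1 and KDR were dim in Hs578T, so the sizes of their differences are uncertain. The samples were cultured cell lines, so a marker named for another cell type does not show that such cells were present. The part of these markers in the line differences was not tested. Bulk RNA cannot tell a smaller share of a line's cells making an RNA from less of it per cell.

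Of the 5 other members of the family, 0 were called as higher in MDA-MB231 and 1 as higher in Hs578T, against the 19% and 16.9% of all genes given above. NRG3, a further neuregulin gene, was lower in MDA-MB231, with 6.64 in FBP1 and 6.74 in control cells, against 9.46 in FBP1 and 9.30 in control cells of Hs578T (difference -2.69 ± 0.12 log2, limma adjusted p = 2.6e-05). Here the MDA-MB231 side was the dim one. ERBB4, the remaining receptor gene, was dim throughout, between 6.28 and 6.81 (-0.36 ± 0.11 log2, limma adjusted p = 0.0531). It was called without the Hs578T control array (0.0183), which made 2 of 5. NRG4 and EPGN were dim on all arrays, between 4.20 and 4.75. NRG2 was above the dim level and differed little, between 8.59 and 8.71.

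Genes that limit ERBB and ERK signalling were then examined between the lines. Of 18 listed inhibitors, 9 were called as higher in MDA-MB231 and 4 as higher in Hs578T, with a median difference of 0.28 log2. Of all genes, 19% and 16.9% were called in these directions. The count of 4 was 2 without the MDA-MB231 FBP1 array and 1 without the MDA-MB231 control array, and that of 9 ranged from 7 to 10 with single arrays left out. DUSP4 and DUSP6 encode phosphatases that act on MAP kinases. DUSP4 had 10.65 in FBP1 and 10.70 in control cells of MDA-MB231, against 7.58 in FBP1 and 7.20 in control cells of Hs578T (3.28 ± 0.13 log2, limma adjusted p = 2.17e-05). DUSP6 had 11.04 in FBP1 and 11.30 in control cells of MDA-MB231, against 9.36 in FBP1 and 9.43 in control cells of Hs578T (1.78 ± 0.10 log2). The Sprouty gene SPRY1, an inhibitor of receptor tyrosine kinase signalling, was higher in MDA-MB231 by 1.58 ± 0.17 log2. DUSP5 (1.41 log2), SPRY2 (0.84) and SPRY4 (0.85), named after their values were seen, were also called as higher there.

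CBLB and LRIG3 lay the other way. CBLB, a ubiquitin ligase of the family that marks active EGFR for breakdown, had 10.10 in FBP1 and 9.96 in control cells of MDA-MB231, against 11.81 in FBP1 and 11.66 in control cells of Hs578T (-1.70 ± 0.09 log2, limma adjusted p = 5.7e-05). LRIG3, a transmembrane protein related to the ERBB inhibitor LRIG1, differed by -1.22 ± 0.17 log2, and was not called without the MDA-MB231 control array (limma adjusted p = 0.0539).

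The sheddase list held 9 genes: ADAM proteases, the iRhom genes RHBDF1 and RHBDF2, and the protease inhibitor gene TIMP3. Of these 9, 1 was called as higher in MDA-MB231 and 2 as higher in Hs578T. These counts lie near the shares of all genes, 19% and 16.9%, and the first was 2 without either Hs578T array. RHBDF2, which encodes the ADAM17 partner iRhom2, differed by 0.82 ± 0.11 log2. ADAM12, a protease gene, had 8.55 in FBP1 and 8.80 in control cells of MDA-MB231, against 11.96 in FBP1 and 12.30 in control cells of Hs578T (-3.46 ± 0.10 log2), and ADAM9 differed by -0.44 ± 0.06. ADAM17, the main sheddase of several EGFR ligands, was not called (-0.03 log2, limma adjusted p = 0.852).

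Of 24 listed adaptor and effector genes, 16 could be measured, of which 4 were called as higher in MDA-MB231 and 3 as higher in Hs578T. These too lie near the shares of all genes, 19% and 16.9%. The count of 4 was 1 without either MDA-MB231 array, and that of 3 was 1 without the MDA-MB231 FBP1 array. The RAS exchange factor gene SOS2 differed by 0.78 ± 0.09 log2, SOS1 by -0.59 ± 0.08, GAB1, a docking protein, by -0.59 ± 0.11 and PIK3R1, a regulatory subunit of PI 3-kinase, by -0.97 ± 0.16. GAB1 was not called without the MDA-MB231 FBP1 array (limma adjusted p = 0.0683) or with the mean of probe sets (0.116), and PIK3R1 not without the MDA-MB231 FBP1 array (0.0529) or the MDA-MB231 control array (0.0655).

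Of 13 genes that ERK signalling is known to induce, 5 were called as higher in MDA-MB231 and 4 as higher in Hs578T, against 19% and 16.9% of all genes. The count of 4 was 0 without the MDA-MB231 FBP1 array and 1 without the MDA-MB231 control array. ETV4, an ETS transcription factor gene, differed by 1.75 ± 0.20 log2, PHLDA1 by 0.61 ± 0.07, IER3 by 0.60 ± 0.07 and the early response gene EGR1 by -0.97 ± 0.16. The EGR1 call was lost without the MDA-MB231 FBP1 array (limma adjusted p = 0.205) or the MDA-MB231 control array (0.112).

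**Figure D3:**
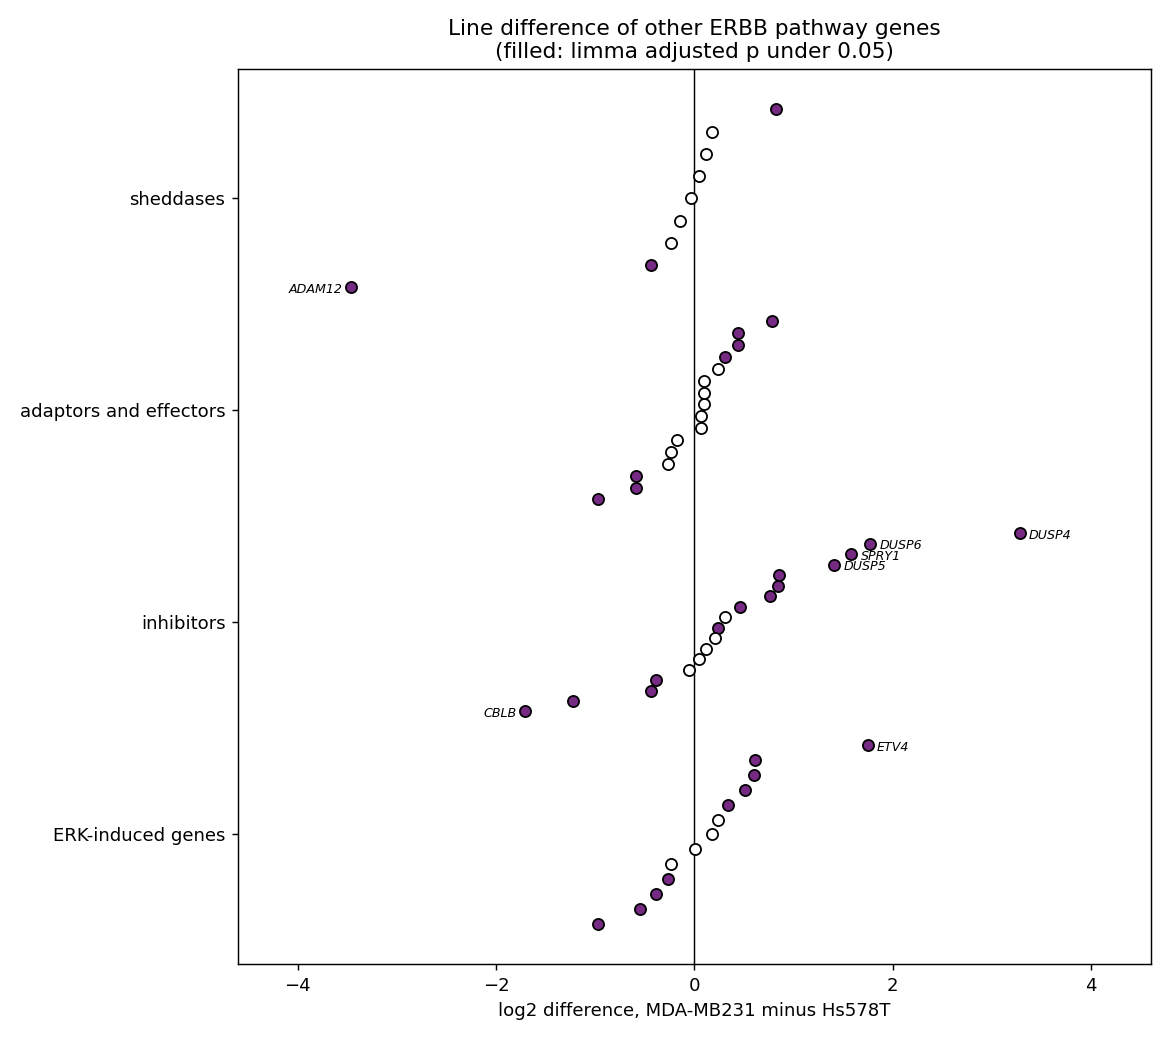
Log2 difference between the lines (x axis, MDA-MB231 minus Hs578T) for 4 groups of pathway genes, 1 point per gene, ordered by value within a group. Filled points had a limma adjusted p under 0.05. DUSP4 (3.28), DUSP6 (1.78) and ETV4 (1.75) lie to the right, and ADAM12 (-3.46) and CBLB (-1.70) to the left.

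The study's own question was what FBP1 does in each line. Within a line there was 1 array per group, so no test was possible, and changes are given as FBP1 minus control on the log2 scale beside the share of all genes past the same limit. In MDA-MB231, EREG was the gene of the 9 whose level differed by at least 1.5-fold, and in Hs578T it was NRG1. None of the 9 differed by 1.5-fold in both lines, and none by 2-fold in either. Most genes on the array also changed little: 99.3% of all genes stayed within 1.5-fold in MDA-MB231 and 97% in Hs578T. The share of all genes past 2-fold is not given here. The changes had the same sign in both lines for 4 genes and opposite signs for 5.

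EREG was lower with FBP1 in MDA-MB231, at 11.00 in FBP1 and 11.63 in control cells, a change of -0.62 log2 (1.54-fold). In Hs578T, where it was dim, the change was 0.09. Of all genes, 0.337% were at least 1.5-fold lower with FBP1 in MDA-MB231 and 0.353% at least 1.5-fold higher. The EREG change ranked 43 from the lowest of 18417, and lay close to the 1.5-fold limit of 0.585 log2.

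NRG1 was higher with FBP1 in Hs578T, at 10.41 in FBP1 and 9.51 in control cells, a change of 0.90 log2 (1.87-fold) that ranked 69 from the highest. In MDA-MB231 the change was -0.06. Of all genes, 1.4% were at least 1.5-fold higher with FBP1 in Hs578T and 1.57% at least 1.5-fold lower. The other NRG1 probe set had 9.97 in FBP1 and 9.40 in control cells of Hs578T, a change of 0.57 log2 (1.48-fold), which is below the limit, and of -0.04 in MDA-MB231. The mean of the probe sets differed by 0.73. Both probe sets thus read higher in the FBP1 cells of Hs578T, by different amounts.

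EGF differed by 0.46 log2 in MDA-MB231 and -0.44 in Hs578T, neither past 1.5-fold. Its level was 8.01 in FBP1 and 7.56 in control cells of MDA-MB231, and 7.28 in FBP1 and 7.71 in control cells of Hs578T, near the dim level. The other ligands stayed within 1.5-fold of control: HBEGF differed by 0.13 in MDA-MB231 and 0.25 in Hs578T, TGFA by -0.03 in MDA-MB231 and 0.12 in Hs578T, and BTC by 0.07 in MDA-MB231 and 0.08 in Hs578T.

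The receptors were also within 1.5-fold of control in both lines. EGFR differed by 0.03 log2 in MDA-MB231 and 0.21 in Hs578T, ERBB3 by 0.15 in MDA-MB231 and 0.29 in Hs578T, and ERBB2 by 0.19 in MDA-MB231 and -0.21 in Hs578T. The sign was thus shared for EGFR and ERBB3 and opposite for ERBB2. With 1 array per group, changes of this size cannot be set against replicate error.

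**Figure D4:**
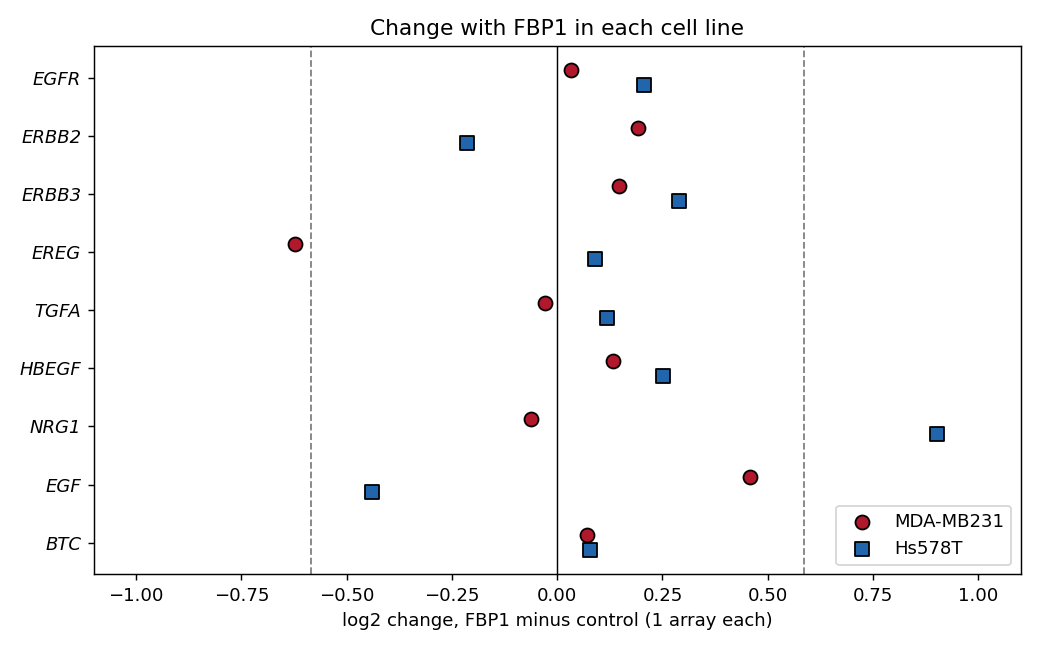
Log2 change with FBP1 (x axis, FBP1 minus control, 1 array each) of the 9 genes in MDA-MB231 (circles) and Hs578T (squares). Dashed lines mark 1.5-fold. EREG in MDA-MB231 (-0.62) and NRG1 in Hs578T (0.90) lie outside them.

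Taking the lines as replicates of the FBP1 effect, the limma fit called 0 of the 9 genes and 0% of all 18417, with adjusted p-values from 0.936 to 1. At an unadjusted limma p under 0.05 it gave 0 of the 9 and 966 of all 18417 genes. The latter is close to the share that this threshold gives when no gene changes. HBEGF had the lowest unadjusted p of the 9 (0.0687, change 0.19 ± 0.09 log2). FBP1 itself was not called (5.12 ± 0.77 log2, limma adjusted p = 0.936), so 0 calls do not show that no gene changed. Whether a gene's change differed between the lines could not be tested, since a term for it leaves no residual degree of freedom.

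Among the pathway genes, few differed by 1.5-fold with FBP1, all of them in Hs578T. LRIG3 was higher there, at 10.51 in FBP1 and 9.82 in control cells (0.69 log2, and 0.03 in MDA-MB231). ETV4 was also higher, at 9.34 in FBP1 and 8.65 in control cells (0.69, and -0.15 in MDA-MB231). EGR1 was lower, at 10.30 in FBP1 and 11.20 in control cells (-0.91, and -0.29 in MDA-MB231). These 3 were 1 of 18 inhibitors and 2 of 13 ERK-induced genes, where 1.4% of all genes were higher and 1.57% lower in Hs578T past the same limit. The sheddase, adaptor and other family lists held none past 1.5-fold in either line, and no list held one in MDA-MB231. Median differences of the lists lay between -0.07 and 0.06 log2 in MDA-MB231, against -0.004 over all genes, and between -0.04 and 0.07 in Hs578T, against 0.03 over all genes. In Hs578T the fibroblast marker FAP differed by -1.34 log2 and the keratin gene KRT14 by 0.77. FAP was dim in the FBP1 cells (6.67, against 8.01 in control cells), so the size of its change is uncertain. It was the 1 of 5 fibroblast markers past 1.5-fold there. The part of FAP and KRT14 in these changes was not tested.

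The genes whose profile over the 4 arrays lay closest to that of EGFR, by Euclidean distance between log2 values centred on each gene's mean, were UCK2 (0.013), USP27X (0.0181) and IRX2-DT (0.0195). For NRG1 they were NIPAL1 (0.138), TMEM171 (0.148) and CLCN4 (0.184). Each was higher with FBP1 in Hs578T, by 0.80, 0.77 and 0.77 log2, which follows from choosing them by likeness to NRG1. Over 4 arrays, many genes can share such a profile.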

How the data were processed

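RNA from 4 samples was measured on Affymetrix arrays. The deposited table held log2 values of 33297 probe sets, between 2.40 and 14.81, made by the authors with Affymetrix Expression Console (version 1.1.2800.28061, per the submitters' processing notes). How arrays were normalized is not stated in the sources used. Scaling between arrays would hide a change in total RNA per cell.

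By the platform annotation, 19460 probe sets had 1 gene, 1754 several and 12083 none. The probe set with the highest mean was kept per gene, which left 18417 genes with no intensity filter. limma 3.58.1 in R 4.3.3 fitted log2 values on cell line and construct with an intensity trend, and p-values were adjusted by Benjamini-Hochberg over all genes and called at 0.05. Line thus served as the block pairing FBP1 and control arrays. The fit was tested on simulated data. Changes within a line were counted at 1.5-fold, without a test.

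The genes, pathway lists and tests were chosen with earlier results of these data known. Named pathway genes were those past 1.5-fold in either line, up to 4 per list with the largest called line difference, and all other family members. Alternatives covered quantile normalization, median centring, a filter at the 25th percentile of probe set means, the mean of probe sets, the variance prior, the model terms, single arrays left out and a 2-fold limit. An untested value counted as moved when it shifted by at least 0.112 log2, the prior standard deviation of the fit. Listed genes with no probe set annotated to them alone were left out: 1 ligand, 8 effectors, 4 basal markers and 1 leukocyte marker were not analysed here.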

Additional observations from a re-analysis of the deposited data

Results flagged for a closer look

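The change with FBP1 had opposite signs in the lines for 5 of the 9 receptor and ligand genes, as it did for 48.7% of all genes. With 1 array per group, these differences between lines could not be tested. The log2 changes and the MDA-MB231 change minus the Hs578T change were as follows. NRG1 differed by -0.06 in MDA-MB231 and 0.90 in Hs578T, a difference of -0.96. EGF differed by 0.46 in MDA-MB231 and -0.44 in Hs578T, a difference of 0.90. EREG differed by -0.62 in MDA-MB231 and 0.09 in Hs578T, a difference of -0.71. ERBB2 differed by 0.19 in MDA-MB231 and -0.21 in Hs578T, a difference of 0.40. TGFA differed by -0.03 in MDA-MB231 and 0.12 in Hs578T, a difference of -0.15. 

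Of the pathway genes named, 13 also had changes of opposite sign, again untested. The MDA-MB231 change minus the Hs578T change was -0.26 for NRG3, -0.065 for ADAM9, -0.24 for GAB1, -0.082 for SOS1, -0.65 for SPRY1, -0.22 for SPRY4, -0.43 for DUSP4 and -0.84 for ETV4. It was 0.39 for EPGN, 0.13 for NRG4, 0.15 for RHBDF2, 0.62 for PIK3R1 and 0.12 for IER3.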

How the results depend on the processing

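Between the lines, the count of receptor and ligand genes called by limma was 5. It was 4 or 5 under quantile normalization, median centring, the filter at the 25th percentile, the mean of probe sets, no intensity trend and cell line alone in the model. The limit of that filter was 6.16, below the dim level of 7.13, so the dim genes ERBB3 and BTC stayed in. With single arrays left out and cell line alone in the model, which assumes that the lone array of a line varies like the other line, it ranged from 3 to 6, and the count over all genes from 3314 to 7169, against 6623. It was 3 without either MDA-MB231 array, when 3509 genes were called without the FBP1 array and 3314 without the control array. The fit without the block for cell line called 0 of the 9 genes as changed with FBP1, as did the fit with it and each other alternative. At 2-fold in place of 1.5-fold, 0 genes were past the limit in MDA-MB231 and 0 in Hs578T, against 1 in each. Between control cells alone the EGF difference was -0.16. Counts in the pathway lists stayed within 1.5 times under quantile normalization, the filter at the 25th percentile and the mean of probe sets. Further alternatives for these lists were chosen after seeing the data. With cell line alone in the model they also stayed within 1.5 times, as they did under median centring and without an intensity trend, except that 2 other family members were then called as higher in Hs578T, against 1. With single arrays left out, the counts higher in MDA-MB231 ranged from 0 to 0 for the other family members, 1 to 2 for sheddases, 1 to 5 for adaptors and effectors, 7 to 10 for inhibitors and 4 to 6 for ERK-induced genes. The counts higher in Hs578T ranged from 1 to 2 for the other family members, 2 to 3 for sheddases, 1 to 4 for adaptors and effectors, 1 to 4 for inhibitors and 0 to 5 for ERK-induced genes. Dim levels limit ERBB3, BTC, ERBB4, NRG4 and EPGN in both lines, EREG and TGFA in Hs578T, and NRG3 in MDA-MB231.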
